A study of Mus musculus with 4 samples.

Results

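The Klf genes Klf2, Klf3, Klf4, Klf6, Klf7, Klf9, Klf10 and Klf13 were followed through brain ECs (endothelial cells) and their neighbours. They are the 8 rows with these symbols among the 55487 genes of the count tables and were picked by symbol. The set was put together with earlier results of these data known, the higher Klf4 counts in the EC-K4KO libraries among them. The question was whether other Klf genes were higher wherever Klf4 was higher in the libraries labelled as EC-specific Klf4 knockouts (EC-K4KO), and in which vessel segments. The counts are UMIs, which tag single captured RNA molecules, and a level is given as CPM, the UMIs of a gene scaled to a fixed total of UMIs of the same cells.

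There were 4 droplet libraries of mouse brain, 1 for each group: young mice of the WT Cre and of the EC-K4KO genotype, and old mice of both. Values for the 4 libraries are given in this order, and each EC-K4KO library was set against the WT Cre library of its age (the young pair and the old pair). The EC-K4KO mice carried floxed Klf4 and a tamoxifen-inducible Cre under the promoter of Cdh5, the VE-cadherin gene of ECs, while WT Cre littermates carried that Cre without floxed Klf4. All were of C57BL/6J background and both sexes were used. Per the study's methods Cre was induced with tamoxifen in adult mice of both genotypes, whereas the sample labels say that no drug was given. These sources conflict, so whether and when Cre was induced in the mice of these libraries is uncertain. Brains were dissociated mechanically and ECs enriched by a sort or by marker-based purification, yet the libraries also held glia, mural cells and blood cells. The number of mice in a library was not given in the sources used here. The exons removed from floxed Klf4 were not given either, so UMIs counted over the whole gene do not check the deletion.

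KLF proteins are transcription factors that bind GC-rich and CACCC DNA motifs through zinc fingers at their C-terminal end. In ECs laminar flow raises KLF2 and KLF4 through the kinases MEK5 and ERK5 and the MEF2 factors, and both proteins favour an anti-inflammatory and anticoagulant state. The CCM proteins restrain this pathway. KLF6 responds to vascular injury, KLF10 is an early response gene of TGF-beta, KLF9 is induced by glucocorticoid and thyroid hormone, and KLF3 is mainly a repressor. KLF7 is best known from neurons and KLF13 from T lymphocytes.

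On GRCm38 (GENCODE vM21 annotation) Klf4 lies at chr4:55527143-55532466 on the minus strand, Klf2 at chr8:72319033-72321656 and Klf6 at chr13:5861482-5870394 on the plus strand, and Klf10 at chr15:38291463-38300706 on the minus strand. None of these 4 overlaps another annotated gene. Klf3 (chr5:64803388-64832901), Klf7 (chr1:64029447-64122282), Klf9 (chr19:23141226-23168134) and Klf13 (chr7:63886351-63938915) each overlap at least 1 other gene. Whether counting used the strand is not given in the sources used here, so UMIs of those 4 genes and of genes overlapping them could be split or shared.

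The proximal promoters of the 3 genes whose levels differed most between genotype labels are shown with the motifs of Sp, KLF and MEF2 factors that they hold. Each sequence runs 5′ to 3′ on the strand of the gene over 170 bases that end 31 bases before the RefSeq start (GRCm38.p6). Capitals mark GC boxes (GGGCGG on either strand, the kind of element that Sp and KLF factors bind) and the MEF2 consensus.
Klf2, chr8:72318862-72319031, plus strand: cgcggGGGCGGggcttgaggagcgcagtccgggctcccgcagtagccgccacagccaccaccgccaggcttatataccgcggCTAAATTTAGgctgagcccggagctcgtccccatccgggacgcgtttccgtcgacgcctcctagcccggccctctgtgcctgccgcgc
Klf4, chr4:55532506-55532675, minus strand: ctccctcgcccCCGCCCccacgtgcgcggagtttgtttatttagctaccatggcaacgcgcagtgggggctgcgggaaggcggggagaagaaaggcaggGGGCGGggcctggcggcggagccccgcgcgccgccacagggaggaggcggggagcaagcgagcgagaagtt
Klf6, chr13:5861289-5861458, plus strand: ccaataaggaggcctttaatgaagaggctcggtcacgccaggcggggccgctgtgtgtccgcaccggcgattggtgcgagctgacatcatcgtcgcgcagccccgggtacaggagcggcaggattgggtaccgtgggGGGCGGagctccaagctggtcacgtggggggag
The Klf2 window holds a GC box 195 bases and the MEF2 consensus 118 bases before the start. In Klf4 the GC boxes lie 189 and 101 bases before the start, and in Klf6 the GC box lies 63 bases before it. Among windows of the same length before all 27025 RefSeq promoters, 26.6% held the GC box, 20.5% the CACCC box (CCACCC on either strand), 2.01% the MEF2 consensus and 0.955% the CArG box of serum response factor. Of the 7 members in the promoter table, the MEF2 consensus was in Klf2 alone. Klf3 held 3 GC boxes and 3 CACCC boxes, Klf13 held 1 GC box and Klf7 held 3 CACCC boxes, while Klf9 held none of the 4 motifs. These matches describe letters in a window and are not evidence of binding.

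Libraries held 5324 to 8358 barcodes and 30655769 to 88812581 UMIs, and 20737 of 26422 barcodes were kept. Any pair of libraries shared 7 to 42 barcodes. Endothelial-like cells numbered 2732 (WT Cre) and 3322 (EC-K4KO) in young mice and 2159 and 1902 in old mice, with median depths of 6384, 9875.5, 4705 and 3775 UMIs. Their 10 endothelial markers, Cldn5 and Cdh5 among them, summed to 17726 to 20305 CPM, against 51.6 to 398 CPM in astrocyte-like cells. In the endothelial-like cells the 6 erythroid markers, 1 of which was at 0, summed to 372, 707, 421 and 798 CPM in the same order of libraries, so this list was higher in both libraries labelled EC-K4KO. The 9 neutrophil markers summed to 7.63, 7.04, 11.8 and 197 CPM and stood apart in old EC-K4KO. The 6 neuron markers summed to 169, 64.8, 318 and 107 CPM and were lower in both EC-K4KO libraries. Stmn2 of this list also served as an arterial endothelial marker and had a log2 change of -1.74 with the label in edgeR's fit. This sum therefore does not set neuronal RNA apart from endothelial RNA. The 8 smooth muscle markers summed to 114, 211, 162 and 91.1 CPM. The part of these other markers in the Klf ratios was not tested, apart from the values without erythroid UMIs given below. Each group has 1 library, so the intervals below (95%, exact) hold for counting error alone, without any check between replicate libraries.

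Klf4 UMIs went against the genotype label in both age pairs. EC-K4KO is therefore used below as the label of a library, not as a checked genotype. In endothelial-like cells Klf4 was at 1710 CPM (WT Cre) and 3289 CPM (EC-K4KO) in young mice and 2096 and 3294 CPM in old mice. Both libraries labelled as knockouts were thus higher than both WT Cre libraries. The log2 ratio of EC-K4KO over WT Cre was 0.94 (0.93 to 0.96) for the young pair and 0.65 (0.63 to 0.67) for the old pair, or 1.92-fold and 1.57-fold. In the additive model, which fits age and genotype label to the summed counts of all 4 libraries with edgeR's quasi-likelihood test, the Klf4 log2 change with the EC-K4KO label was 0.83. It is given with no p-value, since this difference was known when the genes were chosen. The fit covered 14908 genes. This fit takes the genotype difference to be equal at both ages and leaves 1 residual degree of freedom. Among endothelial-like cells with no erythroid UMI (471, 71, 846 and 809 cells in the order above) the Klf4 log2 ratios were 0.88 for the young pair and 0.69 for the old pair.

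Klf6 was next to Klf4 in the size of the difference. Its levels were 836 CPM (WT Cre) and 1376 CPM (EC-K4KO) in young mice and 1012 and 1357 CPM in old mice. As for Klf4, the EC-K4KO libraries did not overlap the WT Cre libraries. The log2 ratio was 0.72 (0.70 to 0.74) for the young pair and 0.42 (0.39 to 0.46) for the old pair. In the additive model the Klf6 log2 change with the label was 0.60 (edgeR adjusted p = 0.0820), which missed the threshold of 0.05. It passed in all 6 alternatives run, with adjusted p from 3.196e-08 with no filter on low counts in edgeR to 0.0315 with DESeq2's size factors in edgeR. All of these fits rest on 4 libraries with 1 residual degree of freedom. Over all genes the smallest edgeR adjusted p was 1.648e-122 with no filter and 7.299e-160 in capillary-like cells alone. Values this small are not to be read as strength of support, here or for the members below.

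Klf2, the flow-responsive relative of Klf4, was higher in both EC-K4KO libraries as well, at 4279, 6723, 4521 and 5516 CPM in the order of the libraries. Its log2 ratios were 0.65 (0.64 to 0.66) and 0.29 (0.27 to 0.30). The additive model gave a log2 change of 0.50 that did not pass (edgeR adjusted p = 0.207). Over the 6 alternatives this p ranged from 7.596e-05 to 0.1216, and 3 of them passed.

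Klf7 and Klf9 differed by less. Klf7 was at 377 CPM (WT Cre) and 464 CPM (EC-K4KO) in young mice and 437 and 517 CPM in old mice. Its log2 ratios of 0.30 (0.26 to 0.33) and 0.24 (0.19 to 0.30) were alike in the 2 pairs. Klf9 was at 440, 483, 498 and 562 CPM in the same order, with log2 ratios of 0.13 (0.10 to 0.17) and 0.17 (0.13 to 0.22). For Klf7 both EC-K4KO libraries were above both WT Cre libraries, while for Klf9 old WT Cre was above young EC-K4KO. Neither gene passed in the additive model (edgeR adjusted p = 0.196 for Klf7 and 0.429 for Klf9). Klf7 passed in 2 of 6 alternatives, with no filter on low counts (edgeR adjusted p = 0.0298) and in capillary-like cells alone (0.0172), and Klf9 in none of the 6.

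Klf10 went the other way. It was at 61.7 CPM in young WT Cre and 50.7 CPM in young EC-K4KO, a log2 ratio of -0.28 (-0.38 to -0.19). In the old mice it was at 102 CPM in WT Cre and 76.2 CPM in EC-K4KO, a log2 ratio of -0.42 (-0.54 to -0.29). The label term did not pass in the additive model (log2 change -0.31, edgeR adjusted p = 0.177), and it passed in 2 of 6 alternatives, with no filter on low counts and in capillary-like cells alone. Klf3 had ratios of opposite sign in the 2 pairs, and Klf13 was lower in the young pair and at about 0 in the old pair. Klf3 was at 159 and 163 CPM in young mice, and at 224 and 203 CPM in old mice (0.04 and -0.15). Klf13 was at 295 and 266 CPM in young mice and at 250 CPM in both old libraries (-0.15 and -0.00034).

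**Figure D1:**
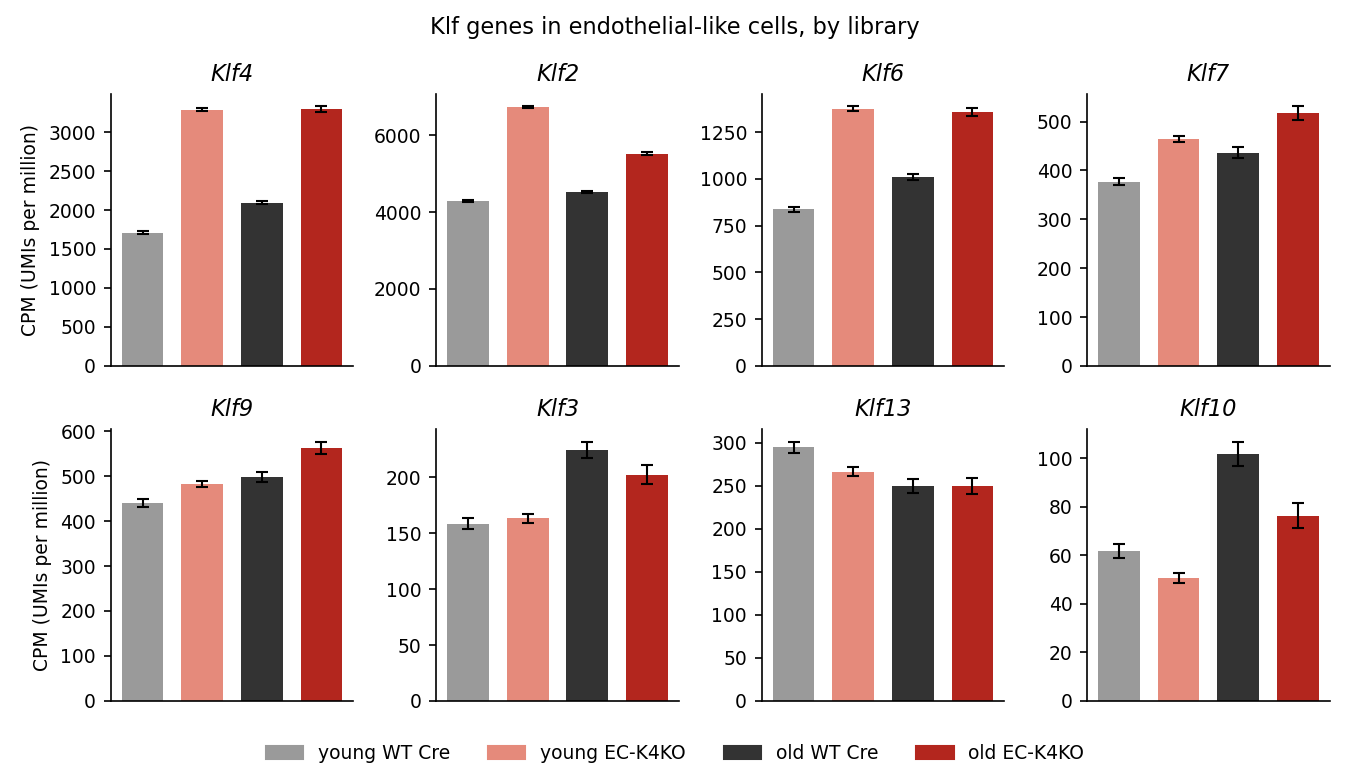
Levels of the 8 Klf genes in endothelial-like cells in CPM (linear axes from 0, a scale of its own for each gene), 1 bar a library, with exact 95% Poisson intervals for counting error. The 2 EC-K4KO bars stand above both WT Cre bars for Klf4 (3289 and 3294 against 1710 and 2096 CPM), Klf2, Klf6 and Klf7, while for Klf10 each EC-K4KO bar is below the WT Cre bar of its age.

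Since the Klf4 difference prompted the question, the members are counted here without it. Of the other 7, 2 (Klf2 and Klf6) were higher by at least 1.5-fold in the young pair, against 1.46% of the 3413 genes averaging 50 CPM or more. In the old pair none was, against 1.08% of genes, and so none was in both pairs (0.527% of genes). No member was lower by that much in either pair, where 0.498% (young) and 0.645% (old) of genes were. To any extent, 4 of the 7 (Klf2, Klf6, Klf7 and Klf9) were higher in both pairs, against 25.6% of genes. The median log2 ratio of the 7 was 0.13 for the young pair and 0.17 for the old pair, and that of all genes -0.01 in each. Cells with no erythroid UMI were 17.2% of young WT Cre and 2.14% of young EC-K4KO endothelial-like cells. In them the young pair differed 1.42-fold for Klf2 and 1.64-fold for Klf6. The share of all genes past 1.5-fold was not computed in these cells, so the members are not counted there. In the additive model with TMM scaling and a filter on low counts, none of the 7 was called with the label by edgeR, where 0.309% of genes were called higher and 0.262% lower at an adjusted p under 0.05. At an unadjusted p under 0.05 the same fit marked 5 of the 7 (Klf6, Klf10, Klf7, Klf2 and Klf9), against 11% of genes. Each of the 6 alternatives called 1 to 4 of the 7 at an adjusted p under 0.05: Klf6 in each, DESeq2's test Klf2 as well, and edgeR with no filter on low counts or in capillary-like cells alone Klf2, Klf7 and Klf10 as well. Over all genes edgeR called 241 of 14908 with DESeq2's size factors, 201 of 15054 with doublets kept and 250 of 14606 with stricter filters. DESeq2's test called 120 of 14908. The settings with 4 members called the most genes, 749 of 27267 with no filter and 647 of 13835 in capillary-like cells.

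The excess was larger in the young than in the old pair for 3 genes. The young minus old difference of the log2 ratios was 0.29 (0.26 to 0.32) for Klf4, 0.36 (0.35 to 0.38) for Klf2 and 0.30 (0.26 to 0.34) for Klf6. For Klf7 it was 0.06 (-0.01 to 0.12) and for Klf9 -0.04 (-0.10 to 0.02), where the interval holds 0. With 1 library a group, these differences between ages could not be tested beyond counting error.

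By vessel segment, the Klf4 difference was present in capillary-like, arterial-like and venous-like cells, and least in venous-like cells. Capillary-like cells (1430 to 2717 a library) had Klf4 at 1545 CPM (WT Cre) and 3139 CPM (EC-K4KO) in young mice and 2146 and 3465 CPM in old mice, log2 ratios of 1.02 and 0.69. In arterial-like cells (165 to 256 a library) Klf4 was at 2035, 3910, 1907 and 3629 CPM in the same order, log2 ratios of 0.94 and 0.93. The young minus old difference of these ratios was 0.33 (0.30 to 0.37) in capillary-like cells and 0.01 (-0.06 to 0.08) in arterial-like cells. Venous-like cells had Klf4 at 1796, 2588, 1609 and 2195 CPM, log2 ratios of 0.53 and 0.45, with a young minus old difference of 0.08 (-0.02 to 0.18). There were 32 of them in the young WT Cre library and 99 to 127 in each other library, and their median depth of 12951 to 31483 UMIs was above that of the other segments. With finer clusters (resolution 2) the venous-like ratios were 0.66 and 0.79, and in the old pair no longer below the capillary-like ratio of 0.78. The capillary-like clusters of 1337 and 822 cells had the venous markers Slc38a5 and Vwf among their leading genes, so the line between these segments was not sharp. Cells of a cluster with both arterial and capillary markers had ratios of 0.46 and 0.56, a difference of -0.10 (-0.17 to -0.03). Of the 3 segments and this cluster, the smaller ratio of the old pair was thus resolved in the pooled capillary-like cells alone. Within their clusters the young and old ratios were 0.71 and 0.61, 1.15 and 1.29, 1.01 and 1.03, 1.11 and 0.83, and 0.71 and 0.60. Some of these clusters had no smaller old ratio. The part of the mix of clusters in the pooled difference was not tested.

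Klf6 followed the same order of pairs in each segment. It was at 788, 1301, 1097 and 1483 CPM in capillary-like cells (0.72 and 0.44), at 948, 1507, 713 and 1022 CPM in arterial-like cells (0.67 and 0.52), and at 879, 1357, 874 and 1053 CPM in venous-like cells (0.63 and 0.27). Every one of these 6 ratios was above 0 beyond counting error. Klf2 log2 ratios were 0.66 and 0.28 in capillary-like, 0.61 and 0.47 in arterial-like and 0.32 and 0.22 in venous-like cells. Of the 7 members other than Klf4, none was higher by at least 1.5-fold in both pairs in capillary-like cells (0.294% of genes), arterial-like cells (0.703%) or venous-like cells (0.317%). In arterial-like cells Klf2 (1.53-fold and 1.39-fold) and Klf6 (1.59-fold and 1.43-fold) came near this size.

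The smaller differences depended on the segment. Klf7 was higher in both pairs in capillary-like cells (0.31 and 0.28) and arterial-like cells (0.40 and 0.36), while in venous-like cells its ratios of -0.03 (-0.18 to 0.12) and 0.07 (-0.06 to 0.21) were within counting error of 0. Klf9 was higher in capillary-like cells (0.16 and 0.21), within counting error of 0 in arterial-like cells (0.02 and -0.06), and of opposite sign in the 2 pairs in venous-like cells (-0.20 and 0.23). Klf10 was lower with the label in capillary-like cells (-0.34 and -0.33) and in venous-like cells (-0.53 and -0.63). In arterial-like cells, on 93 to 179 UMIs a library, its ratios of 0.01 and -0.13 could not be told from 0 at this depth. Klf3 was lower with the label in the old pair in arterial-like cells (-0.28, -0.47 to -0.09) and venous-like cells (-0.37, -0.58 to -0.15) but not detectably in the young pair.

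Levels of the segments against each other, within a library, differed in order between young and old libraries for several members. Klf10 was higher in venous-like than in capillary-like cells in all 4 libraries, by 1.26 and 1.07 (log2) in the young and by 0.39 and 0.09 (-0.18 to 0.35) in the old libraries, WT Cre first, the last within counting error. Klf9 was higher in venous-like cells by 0.84 and 0.49 in the young libraries, and the difference was -0.03 and -0.0032 in the old ones. Klf2 was higher in venous-like than in capillary-like cells by 0.60 and 0.26 in the young libraries and lower in the old ones (-0.57 and -0.64). Klf6 was higher in arterial-like than in capillary-like cells in the young libraries (0.27 and 0.21) and lower in the old ones (-0.62 and -0.54).

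There were 10 endothelial-like clusters, of which 8 lay in the 3 segments, 1 had arterial and capillary markers and 1 was given no segment. Klf4 and Klf6 were each higher with the EC-K4KO label in all 10 in both pairs. Klf4 log2 ratios ranged from 0.46 to 1.15 over clusters for the young pair and from 0.33 to 1.29 for the old pair. The lowest young ratio (0.46) was that of the cluster with arterial and capillary markers, and the lowest old ratio (0.33) that of the cluster with no segment. Klf2 was higher in both pairs in 9 of 10 clusters, Klf7 in 8, Klf9 in 4, Klf10 in 1, and Klf3 and Klf13 in 0. Clusters were drawn from the same libraries and are not replicates.

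With the main settings, none of the 5 classes compared outside endothelium (smooth muscle, microglia, border macrophage, pericyte and astrocyte) had Klf4, Klf2 and Klf6 all higher with the label in both pairs. In the young pair all 3 were higher in pericyte-like and astrocyte-like cells. Other classes were not compared. In vascular smooth muscle-like cells Klf4 was at 896 CPM (WT Cre) and 886 CPM (EC-K4KO) in young mice and 966 and 737 CPM in old mice, and its log2 ratios were -0.02 and -0.39. Klf2 had ratios of -0.31 and -0.12, Klf6 had ratios of -0.21 and 0.05, and Klf9 ratios of 0.01 and 0.43. These ratios depended on the cells kept. With doublets kept those of the young pair were 0.21 for Klf4, 0.082 for Klf2 and 0.21 for Klf6, and with stricter cell filters Klf4 had 0.66 in the young pair and Klf2 0.29 in the old pair. In microglia-like cells Klf4 had ratios of -0.09 and 0.38, on 135, 128, 78.9 and 103 CPM, and Klf6 was at 201 to 246 CPM in all libraries (-0.01 and 0.09, within counting error of 0). Their Klf2 ratios were 0.28 (0.09 to 0.47) and 0.22 (-0.01 to 0.44), so in the old pair all 3 were above 0 and Klf4 alone beyond counting error. Over the alternatives the young-pair ratios in microglia-like cells ran from -0.24 to 0.73 for Klf4 and from -0.18 to 0.31 for Klf6, so these signs were not settled. Border macrophage-like cells, the macrophages of the brain's vessels and coverings (50 to 132 cells a library), had Klf6 at 631 to 679 CPM and log2 ratios of -0.06 and -0.05. Their Klf2 was higher with the label in both pairs, at 437 and 894 CPM in the young and 393 and 616 CPM in the old (1.03 and 0.65). Their Klf4 was within counting error of 0 in the young pair (-0.09) and higher in the old pair (0.93). Over the alternatives the young Klf4 ratio of border macrophage-like cells ran from -0.27 to 0.71. Their Klf6 ratios ran from -0.25 to 0.58 (young) and from -0.20 to 0.086 (old). Summed endothelial markers in these cells were at 681, 799, 279 and 205 CPM in the order of the libraries, and their part in these ratios was not tested.

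In pericyte-like cells Klf4 rested on 18, 45, 106 and 34 UMIs, or 25.5, 67.4, 284 and 140 CPM, and its log2 ratios had opposite signs (1.38 and -1.0), though with doublets kept that of the old pair was 0.14. Endothelial markers summed to 897 to 1164 CPM in these cells. Klf2 had ratios of 0.90 (0.39 to 1.44) and 0.37 (-0.17 to 0.90) there and Klf6 of 0.85 (0.33 to 1.39) and 0.34 (-0.30 to 0.96), so both were higher in the young pair and within counting error of 0 in the old pair. In astrocyte-like cells Klf4 was at 21.1 to 45.9 CPM, on 51, 56, 16 and 16 UMIs, with ratios of 0.96 (0.39 to 1.54) and 0.54 (-0.56 to 1.63). Klf2 had 0.71 and -2.89 in these cells and Klf6 had 0.51 (0.06 to 0.94) and -0.34 (-1.0 to 0.27). Endothelial markers summed to 351, 398, 240 and 51.6 CPM in them, lowest in the library with the least Klf2, and their part in these ratios was not tested. Klf9 was at 317 to 390 CPM there.

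**Figure D2:**
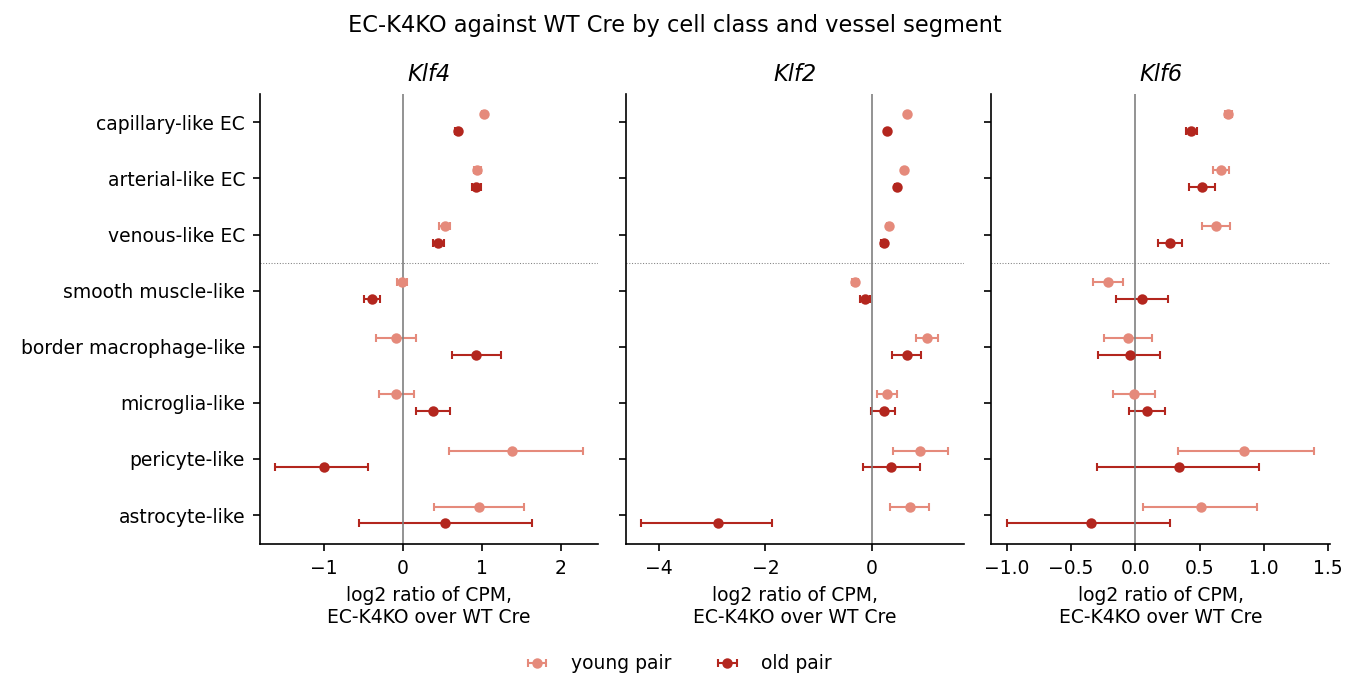
Log2 ratio of CPM, EC-K4KO over WT Cre, for Klf4, Klf2 and Klf6 in 8 cell classes (each panel has its own linear axis), with exact 95% intervals for counting error. All 3 genes lie above 0 in both pairs in the 3 endothelial segments above the dotted line, with Klf4 lowest in venous-like ECs at 0.53 and 0.45, and in no class below the line are all 3 above 0 in both pairs.

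Among the classes compared, ordered by mean level over the 4 libraries, the 3 endothelial segments came first for Klf2, Klf3, Klf4, Klf6, Klf7, Klf10 and Klf13, with ranges that overlapped between segments. For Klf4 the next classes were smooth muscle-like cells (737 to 966 CPM), whose range overlapped with neither neighbour, border macrophage-like cells (274 to 522 CPM), pericyte-like cells (25.5 to 284 CPM) and microglia-like cells (78.9 to 135 CPM), the last 3 overlapping in turn. Klf6 had border macrophage-like cells (631 to 679 CPM) next after endothelium, and no overlap with microglia-like cells below them. Klf9 differed from the other members in this order: smooth muscle-like cells came first (559 to 755 CPM), overlapping with venous-like cells (496 to 738 CPM), and microglia-like cells came last (7.49 to 11.6 CPM). Klf10 was at 33.1 to 50.2 CPM in microglia-like cells and at 1.42 to 5.36 CPM in pericyte-like cells.

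With every cell thinned to 1000 UMIs, to set depth equal, Klf6 was detected in 48.5% (WT Cre) and 65.7% (EC-K4KO) of endothelial-like cells of young mice and in 56.4% and 65.5% of those of old mice. In astrocyte-like cells, which should hold little of it, the shares were 4.89%, 9.88%, 3.73% and 7.87% at median depths of 3678 to 7641 UMIs before thinning. Klf7 was detected in 27.3%, 35.4%, 33.0% and 38.9% of endothelial-like cells and in 14.3%, 20.4%, 16.1% and 15.7% of astrocyte-like cells. Klf10 was detected in 5.09%, 4.0%, 9.50% and 7.20% of endothelial-like cells. In astrocyte-like cells it was found in 2 of 161 cells (1.24%) of old WT Cre and in 0 of 266, 0 of 162 and 0 of 127 cells of the other libraries, in their usual order, which allows shares of up to 1.13%, 1.85% and 2.36% of cells with a UMI among 1000. Without thinning, Klf10 was found in 2.26%, 2.47%, 2.48% and 0.787% of astrocyte-like cells and in 30.7%, 33.6%, 35.9% and 27.7% of endothelial-like cells. In endothelial-like cells these 3 genes gave the libraries the same order by share as by CPM, while in astrocyte-like cells Klf6 did not (old WT Cre was lowest by share and highest by CPM). No cell was left out by thinning.

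Within single capillary-like cells thinned in the same way, cells with more Klf4 UMIs also had more Klf2 and Klf6 UMIs. Spearman's rho of Klf4 with Klf2 was 0.30 (WT Cre) and 0.38 (EC-K4KO) in young mice and 0.26 and 0.29 in old mice (2347, 2717, 1645 and 1430 cells), and that with Klf6 0.14 to 0.20. These are descriptions over cells of 1 library each, which share preparation and depth. In the same cells rho with Klf4 was 0.29 to 0.41 for the immediate early gene Fos and 0.30 to 0.39 for Junb, so values of this size were not limited to Klf genes. The rho of Klf3, Klf7, Klf9, Klf10 and Klf13 with Klf4 lay between -0.03 and 0.11, too weak to read in counts this sparse.

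Grouping the cells by their Klf4 UMIs shows how the 2 libraries of a pair differed at like Klf4. Cells with no Klf4 UMI among 1000 made up 39.3% (WT Cre) and 13.8% (EC-K4KO) of the capillary-like cells of young mice and 28.3% and 12.1% of those of old mice, and cells with at least 5 made up 6.52%, 21.4%, 11.9% and 24.5%. In cells with no Klf4 UMI the mean Klf2 count per 1000 UMIs was 2.80, 3.8, 3.18 and 3.68 in the same order, and in cells with at least 5 it was 6.90, 8.51, 6.91 and 7.52. The Klf6 mean was 0.587, 0.939, 0.730 and 1.01 in cells with no Klf4 UMI. At each Klf4 count from 0 to 4, Klf2 and Klf6 means were higher in the EC-K4KO library in 5 of 5 groups in both pairs, though in the old pair the least difference was 0.15 UMIs for Klf2 and 0.01 UMIs for Klf6. Klf10 was lower in 5 of 5 groups in both pairs. The Klf2, Klf6 and Klf10 differences were therefore seen also between cells with the same Klf4 count, within what 1000 UMIs a cell can resolve, since a cell with no Klf4 UMI drawn may still hold Klf4 RNA.

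**Figure D3:**
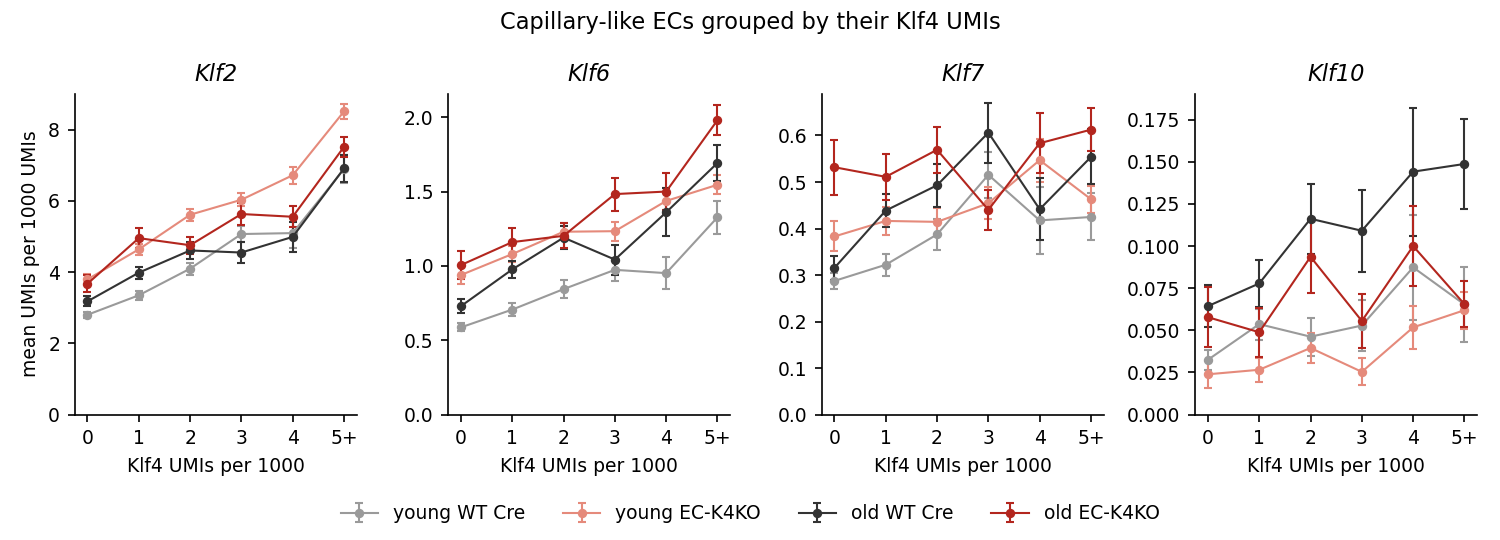
Mean UMIs of Klf2, Klf6, Klf7 and Klf10 per 1000 UMIs (linear axes from 0) in capillary-like cells grouped by their Klf4 UMIs per 1000, 1 line a library, with bars of 1 standard error over cells, which are not replicates. Klf2 goes up along the axis in all 4 libraries, from 2.80 to 6.90 in young WT Cre, and at Klf4 counts of 0 to 4 the EC-K4KO lines for Klf2 and Klf6 lie above the WT Cre lines of the same age and those for Klf10 below.

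Age was compared within each label. The median log2 ratio of old over young over all genes was -0.11 in WT Cre and -0.10 in EC-K4KO endothelial-like cells, so age ratios are to be read against that shift. Klf10 had the largest ratio, at 0.72 (0.62 to 0.82) in WT Cre and 0.59 (0.47 to 0.70) in EC-K4KO. It was the 1 member higher by at least 1.5-fold in either label, against 4.48% of genes in WT Cre and 3.63% in EC-K4KO. Klf3 followed with 0.50 and 0.31. Klf7 (0.21 and 0.16) and Klf9 (0.18 and 0.22) were higher in old mice of both labels. Klf4 (0.29 and 0.00) and Klf6 (0.28 and -0.02) were higher in old than in young WT Cre, and the EC-K4KO libraries were at about the same level at both ages. Klf2 had ratios of 0.08 and -0.29 and Klf13 of -0.24 and -0.09.

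These pooled values joined segments with different ratios. The median over all genes was -0.10 in both labels in capillary-like cells, -0.086 (WT Cre) and -0.046 (EC-K4KO) in arterial-like cells and -0.025 and -0.020 in venous-like cells. Klf4 had 0.47 and 0.14 in capillary-like cells. Within single capillary-like clusters its WT Cre levels were closer, at 2680 (young) and 2817 CPM (old), 920 and 944, 1010 and 1075, 1283 and 1525, and 2251 and 2556 CPM. The first of these clusters held 423 of 2347 young and 691 of 1645 old WT Cre capillary-like cells. The part of this mix in the pooled ratio was not tested. The arterial-like Klf4 ratios of -0.09 and -0.11 were close to the shift of all genes, and the venous-like ones were -0.16 and -0.24. Klf6 had 0.48 and 0.19 in capillary-like and -0.41 (-0.50 to -0.32) and -0.56 in arterial-like cells, and in venous-like cells -0.0079, within counting error, and -0.37. Klf2 had its lowest ratios in venous-like cells (-0.93 and -1.03). Klf10 was higher in old capillary-like cells (0.76 and 0.77) and arterial-like cells (0.79 and 0.65), while its venous-like ratios of -0.10 and -0.20 were within counting error of 0. Klf7 (0.28 and 0.25) and Klf9 (0.29 and 0.35) were higher with age in capillary-like cells and within counting error of 0 in arterial-like cells, and Klf9 was lower in venous-like cells (-0.58 and -0.15). Klf3 was higher in old cells of all 3 segments, from 0.23 to 0.81.

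In the additive model 4 of 8 members rose with age: Klf10 by 0.80 (log2, edgeR adjusted p = 0.002228), Klf3 by 0.55 (0.009359), Klf9 by 0.35 (0.0298) and Klf7 by 0.33 (0.0350), and none fell. Over all genes 9.47% were called higher and 5.49% lower with age. The age terms of Klf4 (0.29, edgeR adjusted p = 0.119) and Klf6 (0.27, 0.122) did not pass. In capillary-like cells alone both passed (edgeR adjusted p = 0.0003597 and 3.658e-05), and over the alternatives the adjusted p was at most 0.1053 for Klf4 and 0.1558 for Klf6. The limit given above for p-values of the alternatives holds here, as does that of the mix of clusters for Klf4.

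**Figure D4:**
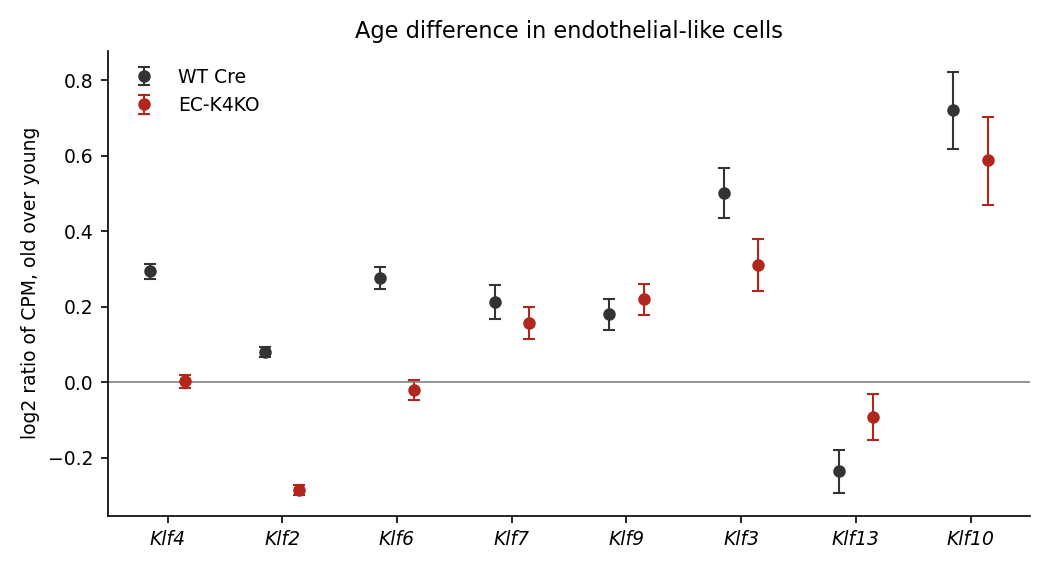
Log2 ratio of CPM, old over young, in endothelial-like cells for each Klf gene in WT Cre and in EC-K4KO libraries, with exact 95% intervals for counting error. Klf10 is highest in both labels (0.72 and 0.59), and for Klf4, Klf6 and Klf2 the WT Cre point lies above the EC-K4KO point.

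Other genes of the pathway and of the responses tied to these factors were counted from lists. Of the other Klf and Sp genes (18 listed), 12 were tested in the additive model and none was called with the label, with a median log2 change of -0.11 against -0.0027 for all genes. The 7 with at least 10 CPM had median log2 ratios of -0.0047 (young pair) and -0.16 (old pair), with Sp4 highest (0.14) and Klf16 lowest (-0.17) for the young pair and Sp3 highest (0.12) and Klf11 lowest (-0.33) for the old pair. Klf11, like Klf10 a TGF-beta-inducible member, was at 53.5, 53.3, 63.6 and 50.5 CPM. Upstream, none of 12 genes of the MEK5, ERK5, MEF2 and CCM list was called with the label (median 0.06). Among the 11 of them with at least 10 CPM the ratios were small: Mef2c at 0.17 and Ccm2 at -0.16 were the extremes in the young pair, and Map3k3 at 0.25 and Mef2c at -0.15 in the old pair. The levels of these RNAs do not report the activity of their proteins.

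Genes that KLF2 or KLF4 are known to raise in ECs included 4 that were tested, and 1 was called, lower (against 0.262% of all genes). This was Ass1, which makes the precursor of arginine, at 18.2 CPM (WT Cre) and 7.69 CPM (EC-K4KO) in young mice and 28.2 and 11.2 CPM in old mice (log2 change -1.24, edgeR adjusted p = 0.0195). Ass1 was also called higher with age (0.75, edgeR adjusted p = 0.009309). Thrombomodulin (Thbd, 0.16 and 0.11) and the sphingosine phosphate receptor S1pr1 (0.22 and -0.0048) had small ratios. Nos3, the endothelial nitric oxide synthase, was at 211, 183, 192 and 156 CPM in the order of the libraries (-0.21 and -0.30) and was not called. Of 10 genes they are known to lower, none was called with the label (median 0.42). The leukocyte adhesion molecule Vcam1 was at 322 and 345 CPM in young and 570 and 917 CPM in old mice (0.10 and 0.69), and E-selectin (Sele) at 2.14 and 7.41 CPM and at 37.9 and 53.7 CPM (1.78 and 0.50). Angpt2 was lower in the young pair (-0.84) and not in the old (0.28). Among the 6 genes of this list with at least 10 CPM, Adamts4 had the lowest ratio in the old pair (-0.13). With age, 4 of these 10 were called higher (Ace, Adamts4, Sele and Vcam1), against 9.47% of all genes.

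Immediate early genes, which dissociation also raises, had median ratios of opposite sign in the 2 pairs. None of 16 was called with the label, and the median log2 change in the additive model was 0.08. Their median log2 ratio was 0.36 for the young pair and -0.19 for the old pair, and Fos was at 1558 and 2792 CPM in young mice (0.84) and at 1901 and 1846 CPM in old mice (-0.04). The lowest ratio of the young pair was that of the heat shock gene Hspa1a (-0.36), and in the old pair Egr1 was highest (0.17) and Nr4a1 lowest (-0.39). The difference of the list between the pairs and its part in the Klf ratios were not tested. With age 8 of the 16 were called higher and none lower, against 9.47% and 5.49% of all genes.

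Of 8 glucocorticoid response genes, 2 were called higher with the label and 1 lower, against 0.309% and 0.262% of all genes. The median log2 ratio of the list was 0.28 for the young pair and -0.0046 for the old pair, with 6 and 4 of the 8 above 0. Tsc22d3, the glucocorticoid-induced leucine zipper, was at 373, 713, 302 and 477 CPM in the order of the libraries, with ratios of 0.94 and 0.66 (edgeR adjusted p = 0.0310), and Zbtb16 had ratios of 0.70 and 0.80 (edgeR adjusted p = 0.0310). The metallothionein Mt2 was lower (-0.59 and -0.90, edgeR adjusted p = 0.0456). Fkbp5, at 3.54, 6.41, 10.8 and 20.2 CPM, had ratios of 0.85 and 0.90 and did not pass (edgeR adjusted p = 0.0561). Klf9, itself a glucocorticoid-induced member, had the smaller ratios given above. Of 7 early genes of TGF-beta and BMP signalling none was called with the label. Id1 was lowest in both pairs (-0.73 and -0.17), with Tgif1 highest in the young pair (0.43) and Smad7 in the old (0.09). With age 5 of the 7 (Id2, Skil, Smad6, Smad7 and Tgif1) rose, against 9.47% of all genes, while Id1 (-0.81 in WT Cre and -0.25 in EC-K4KO) and Id3 (-0.67 and -0.32) had ratios of old over young below 0 and were not called.

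Across 28 profiles (7 cell classes in 4 libraries, log2 of CPM plus 1, 7134 genes), the gene whose pattern was most like that of Klf4 was Klf2 (Pearson r 0.958), followed by Dusp1 (0.940), Bnip2 (0.940), Clic4 (0.922) and Pkp4 (0.914). After Klf4, those most like Klf2 were Fxyd5 (0.935), Gbp2 (0.933), Ndrg1 (0.929) and Kitl (0.928). The closest to the other members were Clec2d for Klf6 (0.954), Cd2ap for Klf3 (0.893), Smim10l1 for Klf7 (0.947), Selenow for Klf9 (0.974), Ptp4a2 for Klf10 (0.950) and Tmpo for Klf13 (0.961). Among members, r with Klf4 was 0.878 for Klf6, 0.719 for Klf10 and 0.310 for Klf9, and that of Klf9 with Klf10 was -0.360. These profiles share libraries and mostly set cell classes apart, so r describes the distribution over classes.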

How the data were processed

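The authors deposited UMI counts per gene and barcode. The file headers name Cell Ranger 6.0.2, and the submitters' notes list the builds mm10 and GRCm38 and Seurat. The counts are whole numbers that were neither normalized nor filtered by cell quality, except that barcodes had been called as cells. The kit's read end and strand setting are not given in the sources used here. The 8 members and all gene lists were chosen with earlier results of these data known.

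Barcodes were kept with at least 500 genes, 1000 UMIs and at most 10% mitochondrial UMIs. Scrublet's automatic call marked 50, 150, 118 and 39 barcodes, so the highest scores were removed at 0.8% per 1000 cells (175, 385, 270 and 147). Cells were clustered (scanpy 1.11.5, 2000 variable genes, 30 components, 20 neighbours, Leiden resolution 1) and clusters named from fixed markers, so names can differ from the study's. A cluster of 665 cells with endothelial and erythroid markers stayed unnamed.

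UMIs were summed by class and library. CPM carry exact Poisson intervals, log2 ratios (0.5 UMIs added) exact conditional binomial intervals, and shares exact Clopper-Pearson intervals in the tables, all for counting error only. No p-value was made from cells. The additive model (edgeR 4.0.16, age and genotype label, Benjamini-Hochberg over all genes) is the 1 test across libraries, and since ages stand in for replicates its p-values rest on 4 libraries. Its code was checked on simulated counts. Genes counted by fold had a mean of at least 50 CPM, list ratios at least 10 CPM and likeness at least 20 CPM. From each list the genes with the highest and lowest ratio in each pair were named, with called genes and those described besides chosen after their values were seen. Of the 55487 gene identifiers 55094 matched the annotation. Promoters are RefSeq's, and 7 of 8 members had one (not Klf10). Alternatives were TMM and DESeq2 (1.42.0) scaling, DESeq2's test, other filters, resolution 2, doublets kept, classes from single cells, means over cells or segments and thinning to 2000 UMIs. A setting with cells of no erythroid UMI was added after seeing the data.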

Additional observations from a re-analysis of the deposited data

Results flagged for a closer look

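The following differences had opposite signs in the 2 groups under the same contrast, beyond the interval for counting error in each. None of these differences was tested beyond counting error, since each group holds 1 library. In endothelial-like cells the Klf2 log2 ratio of old over young was 0.079 in WT Cre and -0.29 in EC-K4KO. The remaining 4 are log2 ratios of EC-K4KO over WT Cre in the young and in the old pair. Klf9 in venous-like cells had -0.20 in the young and 0.23 in the old pair. In pericyte-like cells Klf4 had 1.38 and -1.0 and Klf3 had -1.01 and 1.33. Klf2 in astrocyte-like cells had 0.71 and -2.89, the last on 7 UMIs in old EC-K4KO. Over the alternatives the astrocyte-like Klf2 ratios ranged from 0.55 to 1.60 (young) and from -2.93 to -1.36 (old), and the pericyte-like ratios from 1.10 to 2.79 and -1.46 to 0.14 for Klf4 and from -0.98 to -0.16 and 1.18 to 1.51 for Klf3.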

How the results depend on the processing

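The Klf4, Klf2, Klf6 and Klf7 ratios in endothelial-like cells kept their sign in both pairs under all 9 alternatives, 1 of them chosen after seeing the data. The Klf4 ratio in endothelial-like cells (0.94 young, 0.65 old) was 1.00 young under TMM and under DESeq2 size factors, 1.04 young and 0.71 old as a mean over cells, 0.83 and 0.69 as a mean of segments, 0.88 and 0.69 in cells with no erythroid UMI, and 0.68 old with stricter cell filters. In capillary-like cells (1.02 and 0.69) it was 1.08 young with TMM, 1.07 with size factors, 1.08 and 0.74 over cells, 1.09 and 0.78 at resolution 2, 1.08 and 0.77 with stricter filters, 1.08 young with doublets kept and 1.04 young with classes from single cells. In arterial-like cells the young ratio (0.94) was 1.00 with TMM, 0.99 with size factors, 1.02 over cells, 0.85 at resolution 2, 0.90 with stricter filters, and 0.80 with doublets kept and with classes from single cells. In venous-like cells (0.53 and 0.45) it was 0.36 and 0.58 over cells, 0.66 and 0.79 at resolution 2, and 0.40 and 0.36 with classes from single cells. No cluster was named venous-like with stricter filters or with doublets kept, so those values could not be had.

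The Klf4 age ratio (0.29 in WT Cre, 0.0024 in EC-K4KO) was 0.43 and 0.090 with TMM, 0.46 and 0.12 with size factors, 0.41 and 0.081 over cells, and 0.27 in WT Cre with stricter filters. Of 91 ratios whose counting interval left out 0, the 6 that changed sign were Klf9 in endothelial-like cells, young pair, as a mean of segments (-0.0070), Klf4 in pericyte-like cells, old pair (0.14), and Klf2 and Klf6 in smooth muscle-like cells, young pair (0.082 and 0.21), all 3 with doublets kept, Klf2 in smooth muscle-like cells, old pair, with stricter filters (0.29), and the Klf13 age ratio in EC-K4KO with size factors (0.029) and over cells (0.0082). Of 69 ratios within counting error of 0, 44 changed sign in at least 1 alternative, among them Klf3 in endothelial-like cells, young pair (-0.07 to 0.10). The shares of endothelial-like cells with a Klf4 UMI at 2000 UMIs were 78.1%, 96.1%, 88.5% and 96.8%, and without thinning 91.6%, 98.9%, 92.4% and 97.4%. Genes called with the label (85) numbered 241 with DESeq2's size factors in edgeR, 120 with DESeq2's test, 749 with no filter on low counts, 201 with doublets kept, 250 with stricter filters and 647 in capillary-like cells, and genes called with age (2231) numbered 1018 with DESeq2's test and 3868 with no filter. The causes of these changes were not tested. No paired analysis was possible because each group holds 1 replicate, so no replicate number joins libraries beyond the age pairs, which the additive model already takes as a term. Leaving out a library leaves the additive model no residual degree of freedom, so no such test was run.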
